A study of Mus musculus with 6 samples.

Results

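Kruppel-like factors (KLFs) are zinc-finger transcription factors, and the 10 genes described here are Klf2, Klf3, Klf4, Klf6, Klf7, Klf9, Klf10, Klf11, Klf12 and Klf13, taken by name from the 14490 genes of an mRNA-seq table of mouse natural killer (NK) cells. NK cells sorted from the spleens of C57BL/6 mice were compared between WT mice, which carry floxed Mettl3 alleles without Cre (Mettl3fl/fl), and cKO mice, which carry the same floxed alleles with Cre expressed from the Ncr1 locus (Ncr1Cre-Mettl3fl/fl in the labels, and Ncr1Cre/+, a single copy of the Cre allele, in the study's methods). Each genotype had 3 samples, the mice of the study were 6 to 10 weeks old, and the labels name no treatment. METTL3 is the catalytic subunit of the complex that writes N6-methyladenosine on mRNA, and Ncr1 encodes NKp46, a receptor that NK cells and some innate lymphoid cells carry, so that control cells keep both Mettl3 alleles and cKO cells lose them once Ncr1 is expressed.

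KLFs bind GC-rich and CACCC-type sequences through 3 zinc fingers, and the family is sorted by the cofactors that its amino-terminal parts recruit. KLF2, KLF4, KLF6 and KLF7 mainly activate transcription through acetyltransferases. KLF3 and KLF12 repress it through the corepressor CtBP, and KLF9, KLF10, KLF11 and KLF13 bind the corepressor Sin3. In lymphocytes KLF2 is best known for holding cells in quiescence and for driving genes of tissue exit such as S1pr1.

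Values are normalized counts, reads per gene divided by a size factor of the sample. The listed genes held from 55965515 to 71464042 reads per sample, as inferred from the values by taking their common step in a sample as 1 read. Mettl3 was at 1303, 1258 and 1192 normalized counts in WT and at 297, 299 and 405 in cKO, a log2 fold change of −1.92 (SE 0.0986, limma adjusted p = 2.32e-14). Ncr1, the locus that holds the Cre, was also lower in cKO, with a log2 fold change of −0.40 (SE 0.0300, limma adjusted p = 3.56e-11). Since WT mice carried no Cre, loss of Mettl3 and the presence of the Cre allele cannot be told apart. Marker counts here are at limma adjusted p under 0.05, which 36.6% of all genes passed. All 10 NK-cell markers were listed, of which 2 were higher and 6 lower in cKO. Their summed level was 827635 to 865427 in WT and 783932 to 821528 in cKO. Of 8 markers of immature NK cells 2 were higher and 2 lower, and of 8 of mature NK cells 3 were higher and 1 lower. Of 8 B-cell markers 6 were higher in cKO and 0 lower, with a sum of 1335 to 1356 in WT and 1795 to 1864 in cKO. Of 7 listed T-cell markers 2 were lower, with a sum of 1817 to 2028 in WT and 1421 to 1598 in cKO. The 2 were Cd3g, with a mean of 802 in WT and 478 in cKO, and Cd6, with 57.5 and 32.3. Cd3d, Cd3e, Cd4, Cd5 and Trat1 did not pass the test. Of 8 listed myeloid markers 4 were higher and 2 lower, with overlapping sums of 13775 to 14441 in WT and 13787 to 14641 in cKO. Cd79a of B cells and Cd3e of T cells were not at 0 in any sample. The part of these markers in the KLF results was not tested. The labels do not say whether each sample came from a separate mouse, so p-values measure the spread between samples, which may be technical.

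Of the 10 KLF genes, 8 changed between genotypes and 3 of them, Klf11, Klf3 and Klf2, rose in cKO, while Klf9, Klf7, Klf4, Klf6 and Klf13 fell. Klf10 and Klf12 did not pass the test (limma on log2 values, adjusted p under 0.05 over all genes). The same test called 36.6% of all 14490 genes, 17.8% as higher and 18.8% as lower. The 3 samples of one genotype lay entirely above those of the other for 8 of the 10 genes, and for 45.7% of all genes. Among the 6945 genes that averaged 1000 normalized counts or more, a limit chosen after the data were seen, 52.6% were called, and 9 of the 10 KLF genes are in that range. The changes were small. The median log2 fold change was −0.08 for the 10 genes and 0.0014 for all genes, and the median size of the change was 0.21 for the 10 genes and 0.17 for all genes, and 0 of the 10 passed both the test and a change of at least 1.5-fold, against 5.13% of all genes. In bulk RNA, fewer cells that express a gene and less of its RNA per cell cannot be told apart.

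**Figure D1:**
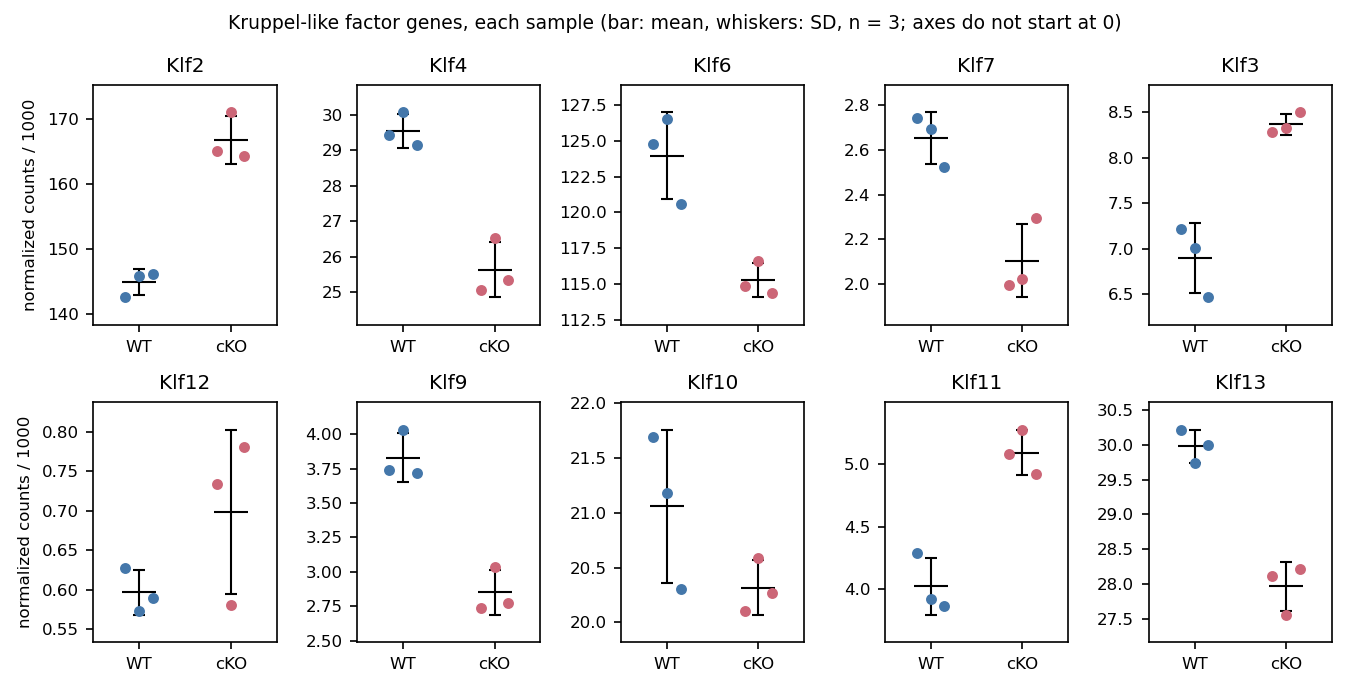
Normalized counts (divided by 1000, vertical axes, each on its own scale not starting at 0) of the 10 KLF genes in the 3 WT and 3 cKO samples (horizontal axis), with points for samples, bars for means and whiskers for SD. Samples of the genotypes are separate for every gene except Klf12 and Klf10.

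Klf2 was by far the most abundant of the 10 genes. Per kb of annotated exon length, its level was 78424 ± 1095 (SD, n = 3) in WT, and that of Klf6, the next, was 28229 ± 694. Klf4 followed at 9690 ± 156, Klf10 at 5040 ± 167 and Klf13 at 3981 ± 31.6. The lower end of the order held Klf11 at 928 ± 52.3, Klf9 at 795 ± 36.9, Klf3 at 613 ± 34.4, Klf7 at 326 ± 14.2 and Klf12 at 85.4 ± 4.06. No neighbours in this order overlapped among the WT samples. By read count rather than per length, Klf2 ranked 32 and Klf6 ranked 46 of the 14490 genes. In cKO the order was kept except that Klf3, at 744 ± 10.4 per kb, stood above Klf9, at 592 ± 33.5, with no overlap. These ranks depend on the length used, and with the longest transcript of each gene Klf3 came before Klf11 and Klf9 in WT too, at 1321 per kb against 985 and 854.

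Klf2 made up 61.2% ± 0.711 of the summed level of the 10 genes per kb in WT and 66.2% ± 0.218 in cKO (SD, n = 3). The lowest cKO sample was at 66.0% and the highest WT sample at 62.0%. The summed level was 128112 ± 1153 per kb in WT and 136406 ± 2556 in cKO, also without overlap. Klf2, Klf6 and Klf4 together accounted for 90.8% in WT and 91.6% in cKO.

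**Figure D2:**
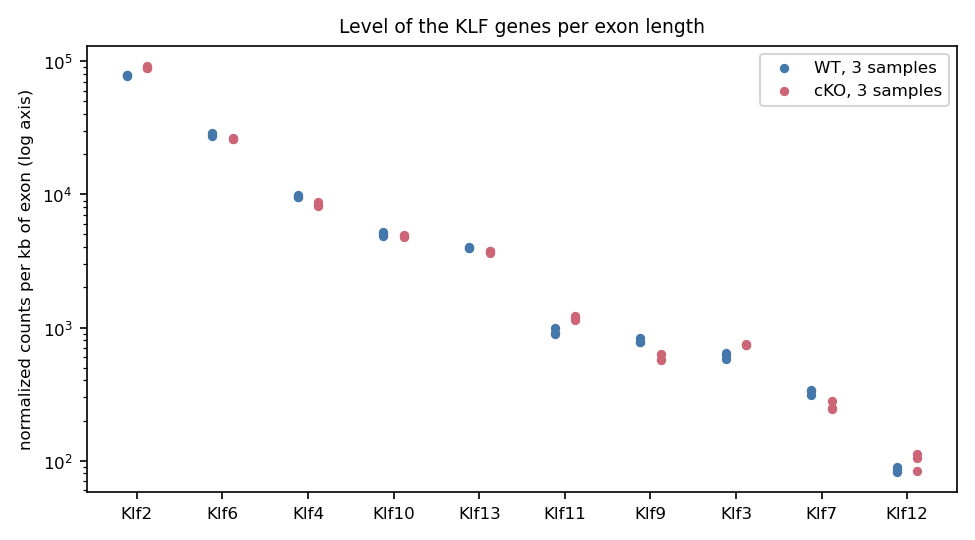
Level of each KLF gene as normalized counts per kb of exon (log vertical axis) for the 3 WT and 3 cKO samples (points), with genes ordered by their WT mean. Klf2 stands highest in both genotypes, and Klf9 lies above Klf3 in WT and below it in cKO.

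Among the activators, Klf2 rose and Klf4, Klf6 and Klf7 fell. Klf2 (ENSMUSG00000055148.7, chromosome 8, 72319033 to 72321656) was at 142524, 145823 and 146199 normalized counts in WT and at 165027, 171015 and 164351 in cKO. Every cKO sample was above every WT sample. The difference was 15.1% (95% confidence interval 10.4 to 20.1), a log2 fold change of 0.20 (SE 0.0297, limma adjusted p = 4.45e-06).

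Klf4 (ENSMUSG00000003032.8, chromosome 4, 55527143 to 55532466), one of the reprogramming factors and a regulator of monocyte differentiation, went the other way. It was at 29419, 30072 and 29146 normalized counts in WT and at 25046, 26529.5 and 25333 in cKO, with all cKO samples below all WT samples. It fell by 13.3% (95% confidence interval −17.0 to −9.36), a log2 fold change of −0.21 (SE 0.0308, limma adjusted p = 6.58e-06). Klf7 (ENSMUSG00000025959.13, chromosome 1, 64029447 to 64122282), known for its part in neuronal development, was at 2744, 2692 and 2524 in WT and at 1998, 2023 and 2294 in cKO. The third cKO sample was the highest of its genotype and still below the lowest WT sample. Klf7 fell by 20.8% (log2 fold change −0.34, SE 0.0539, limma adjusted p = 1.66e-05). Of the Klf7 exon bases, 39.3% also lie in Gm26649, a long non-coding gene on the opposite strand that is not among the listed genes, and the strand setting of the counting is not given in the sources used here, so reads of the pair cannot be told apart.

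Klf6 (ENSMUSG00000000078.7, chromosome 13, 5861482 to 5870394), first described as a core promoter binding protein, was at 124749, 126526 and 120586 in WT and at 114822, 116616 and 114322 in cKO. Its samples did not overlap, but the gap between the lowest WT and the highest cKO sample was smaller than the range of the WT samples. It fell by 7.004% (log2 fold change −0.10, SE 0.0295, limma adjusted p = 0.00619). Scaled to equal totals of the listed genes, its log2 fold change was −0.06 and the limma adjusted p 0.0948, so its call depends on the scaling.

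The promoters of Klf2 and Klf4, an activator that rose and one that fell, are shown to compare the motifs they hold. They are the 250 bases before and 50 bases after the RefSeq start on GRCm38.p6, at chr8:72318812-72319111, plus strand, and chr4:55532426-55532725, minus strand, read 5′ to 3′ on the gene's strand. Capitals mark matches to a CACCC box (CACCC), a GC box (GGGCGG), a cAMP response element half-site (TGACG), a FOXO element (GTAAACA) or a MEF2 element, on either strand.
Klf2: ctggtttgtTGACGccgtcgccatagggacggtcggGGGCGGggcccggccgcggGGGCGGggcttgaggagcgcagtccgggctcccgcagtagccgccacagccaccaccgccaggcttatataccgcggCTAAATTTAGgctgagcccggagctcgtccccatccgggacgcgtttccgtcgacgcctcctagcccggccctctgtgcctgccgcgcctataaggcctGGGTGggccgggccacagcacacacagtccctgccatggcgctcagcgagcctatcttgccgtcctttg
Klf4: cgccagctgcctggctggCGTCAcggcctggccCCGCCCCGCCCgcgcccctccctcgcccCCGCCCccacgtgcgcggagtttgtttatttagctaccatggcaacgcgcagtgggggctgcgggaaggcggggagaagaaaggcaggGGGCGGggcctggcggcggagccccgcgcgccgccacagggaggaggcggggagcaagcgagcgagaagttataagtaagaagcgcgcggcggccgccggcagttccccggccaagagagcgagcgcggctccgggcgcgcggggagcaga
The match of 10 bases from −118 to −109 in the Klf2 promoter is to the MEF2 element, and MEF2 factors are known activators of Klf2. Such a match was in 3.26% of 27025 promoters of the same length and in 1 of the 9 KLF promoters that the RefSeq table holds. The Klf2 promoter also held 2 GC boxes, 1 CACCC box and 1 cAMP response element half-site. That of Klf4 held 4 GC boxes, of which a pair overlap, and 1 half-site. A match is a description of the letters and not a measured binding site.

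Of the CtBP-binding repressors, Klf3 rose and Klf12 did not pass the test. Klf3 (ENSMUSG00000029178.14, chromosome 5, 64803388 to 64832901), a repressor with roles in B cells and red cell precursors, was at 7214.5, 7008 and 6465 normalized counts in WT and at 8280.3, 8325 and 8502 in cKO. The cKO samples lay close together and above all WT samples. Klf3 rose by 21.5% (95% confidence interval 14.98 to 28.3), a log2 fold change of 0.28 (SE 0.0386, limma adjusted p = 1.78e-06). It shares 404 exon bases, 3.59% of its exons, with the antisense gene Gm20033, whose mean was 158.5 normalized counts. Klf12 (ENSMUSG00000072294.5, chromosome 14, 99870632 to 100284679), named for its repression of the AP-2 alpha gene, was at 628, 572 and 589 in WT and at 734, 581 and 781 in cKO. The second cKO sample lay within the WT range and the other two above it. The log2 fold change was 0.22 (SE 0.0948, limma adjusted p = 0.0753), and it moved with the cKO sample left out. It was 0.34 without cKO replicate 2 (limma adjusted p = 0.00437), 0.18 without cKO replicate 1 (limma adjusted p = 0.241) and 0.13 without cKO replicate 3 (limma adjusted p = 0.360). Scaled to equal totals it was 0.27 with a limma adjusted p of 0.0354. Klf12 lies on the same chromosome as Mettl3, 47.6 Mb away, and Klf13 on that of Ncr1, 59.5 Mb away.

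Of the Sin3-binding KLFs, Klf11 rose, Klf9 and Klf13 fell and Klf10 did not pass the test. Klf11 (ENSMUSG00000020653.12, chromosome 12, 24651274 to 24662789), a TGF-beta-inducible early gene, showed the largest rise of the 10. It was at 4287, 3922 and 3870.4 normalized counts in WT and at 5076, 5274 and 4922 in cKO. All cKO samples were above all WT samples. The rise was 26.5% (95% confidence interval 18.9 to 34.5), a log2 fold change of 0.34 (SE 0.0432, limma adjusted p = 5.65e-07).

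Klf9 (ENSMUSG00000033863.2, chromosome 19, 23141226 to 23168134), which glucocorticoid and thyroid hormones induce in many tissues, showed the largest fall. It was at 3739, 4034 and 3715 in WT and at 2740.1, 3035 and 2775 in cKO. The highest cKO sample was well below the lowest WT sample. Klf9 fell by 25.6% (95% confidence interval −30.4 to −20.4), a log2 fold change of −0.43 (SE 0.0472, limma adjusted p = 5.69e-08). Of all genes, 16.1% had a change at least as far from 0 in either direction.

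Klf13 (ENSMUSG00000052040.10, chromosome 7, 63886351 to 63938915), known in T cells for activating the chemokine gene Ccl5, was at 30214.5, 29739 and 29996 in WT and at 28114, 27557 and 28218 in cKO. The samples did not overlap, and it fell by 6.74% (log2 fold change −0.10, SE 0.0290, limma adjusted p = 0.00725). Scaled to equal totals the log2 fold change was −0.05 and the limma adjusted p 0.153. Klf10 (ENSMUSG00000037465.10, chromosome 15, 38291463 to 38300706), the other TGF-beta-inducible early gene, was at 21692, 21180.1 and 20309 in WT and at 20101, 20587 and 20267.5 in cKO. The genotypes overlapped, with a log2 fold change of −0.05 (95% confidence interval −0.12 to 0.01, SE 0.0315, limma adjusted p = 0.217).

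**Figure D3:**
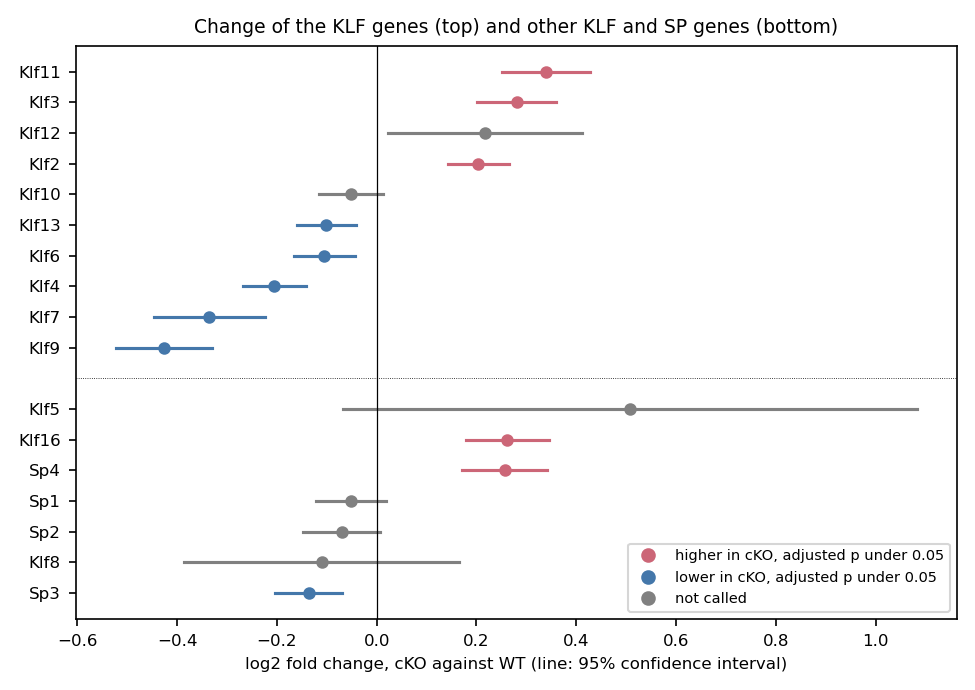
Log2 fold change of cKO against WT (horizontal axis) for the 10 KLF genes (top) and the 7 other listed KLF and SP genes (bottom), with points for limma estimates and lines for 95% confidence intervals. Of the 10 KLF genes, 3 are called higher and 5 lower in cKO.

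The promoters of Klf11 and Klf9, the genes with the largest rise and the largest fall, lie at chr12:24651121-24651420, plus strand, and chr19:23140976-23141275, plus strand, in the same build and with the same motifs in capitals.
Klf11: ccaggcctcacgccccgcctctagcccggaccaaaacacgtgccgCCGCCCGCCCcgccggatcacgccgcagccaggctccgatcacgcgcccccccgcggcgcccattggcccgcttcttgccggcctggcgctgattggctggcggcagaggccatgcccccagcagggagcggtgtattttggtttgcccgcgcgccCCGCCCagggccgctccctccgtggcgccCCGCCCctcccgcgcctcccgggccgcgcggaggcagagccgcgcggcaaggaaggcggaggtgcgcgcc
Klf9: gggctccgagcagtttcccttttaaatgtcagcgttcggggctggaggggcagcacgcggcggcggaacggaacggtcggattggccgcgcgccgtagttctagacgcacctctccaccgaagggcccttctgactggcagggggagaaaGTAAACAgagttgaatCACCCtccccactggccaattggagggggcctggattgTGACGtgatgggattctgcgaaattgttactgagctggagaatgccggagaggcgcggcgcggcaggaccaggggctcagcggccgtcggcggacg
The Klf11 promoter held 4 GC boxes, a pair of which overlap, and none of the other motifs, with a GC content of 77.7%. The Klf9 promoter held no GC box and was 63.3% GC. Its FOXO element from −100 to −94 was the only one among the 9 KLF promoters, and 3.55% of all promoters held one. Over the 9 promoters, GC boxes were present in 7 (35.9% of all promoters), CACCC boxes in 6 (56.7%) and cAMP response element half-sites in 6 (21.02%). A TATA box (TATAAA, on the gene's strand) was in 0 of 9 and in 8.88% of all promoters, and a CArG box was in 0 of 9 and in 1.57%. The GC content ran from 45.7% for Klf12 to 77.7% for Klf11, against a median of 52.7% over all promoters. The Klf12 window, at chr14:100149747-100150046 on the minus strand, lies far inside the annotated gene, whose 5′ end is at 100284679. It may therefore not be the promoter in use. The Klf7 window, at chr1:64121340-64121639 on the minus strand, also lies inside its gene, whose 5′ end is at 64122282. Both windows are included in these counts. GC boxes numbered 6 in Klf3, 4 in Klf11 and Klf4, 3 in Klf13 and 2 in Klf2. Klf6 and Klf7 held 1 each, and Klf9 and Klf12 held 0. A relation between these counts and the changes was not tested.

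**Figure D4:**
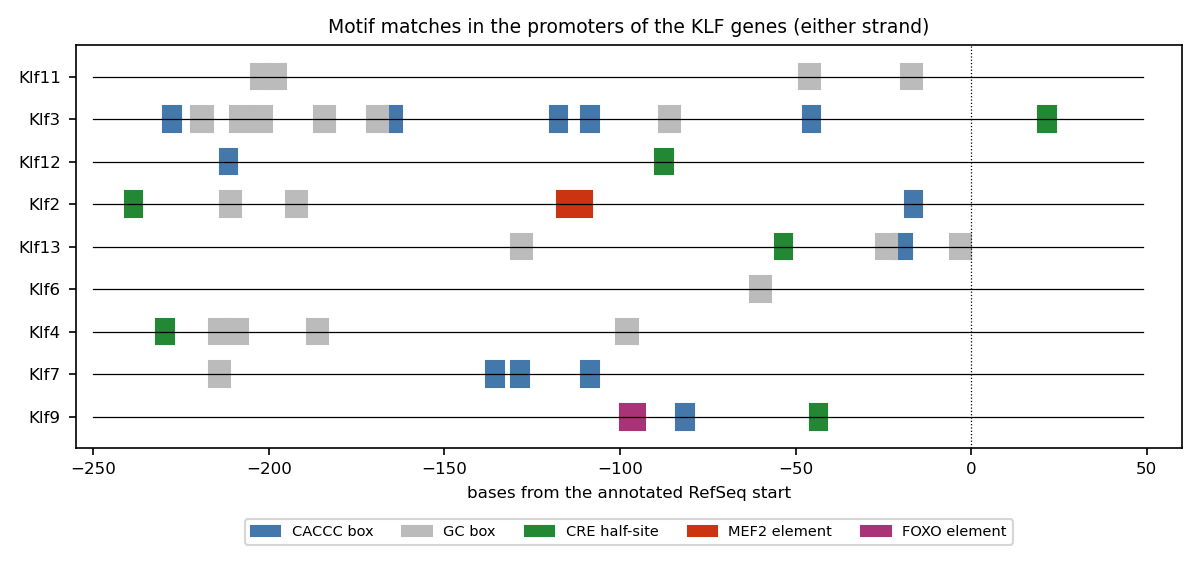
Matches to 5 motif kinds (coloured boxes) in the promoters of 9 KLF genes, by distance in bases from the RefSeq start (horizontal axis), ordered by log2 fold change from the highest (top) to the lowest. The MEF2 element is in the Klf2 promoter and the FOXO element in that of Klf9. The windows of Klf12 and Klf7 lie inside their annotated genes.

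Ratios between KLF genes within a sample do not depend on how samples are scaled. Of the 45 pairs of KLF genes, 33 had ratios that did not overlap between genotypes, so a lack of overlap was usual. The pairs given here were chosen after their values were seen. The ratio of Klf2 to Klf4 normalized counts was 4.84, 4.85 and 5.02 in WT and 6.59, 6.45 and 6.49 in cKO. The mean was 4.90 ± 0.0977 in WT and 6.51 ± 0.0734 in cKO, with no overlap (exact permutation p = 0.1, the smallest that 3 against 3 samples allow). The ratio of Klf2 to Klf6 was 1.17 ± 0.0378 in WT and 1.45 ± 0.0168 in cKO. Of the pair of TGF-beta-inducible genes, Klf10 was at 5.24 ± 0.170 times Klf11 in WT and at 3.99 ± 0.111 times in cKO. The ratio of Klf13 to Klf6 was alike in both genotypes, 0.242 ± 0.00686 in WT and 0.243 ± 0.00559 in cKO, with overlapping samples (SD, n = 3).

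The direction of the 8 called genes was the same under every scaling, correction and left-out sample that was run. Scaling to equal totals put the middle of all log2 fold changes at 0.05, against 0.0014 with the deposited factors, and under it the 10 genes split into 4 called higher and 3 called lower.

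**Figure D5:**
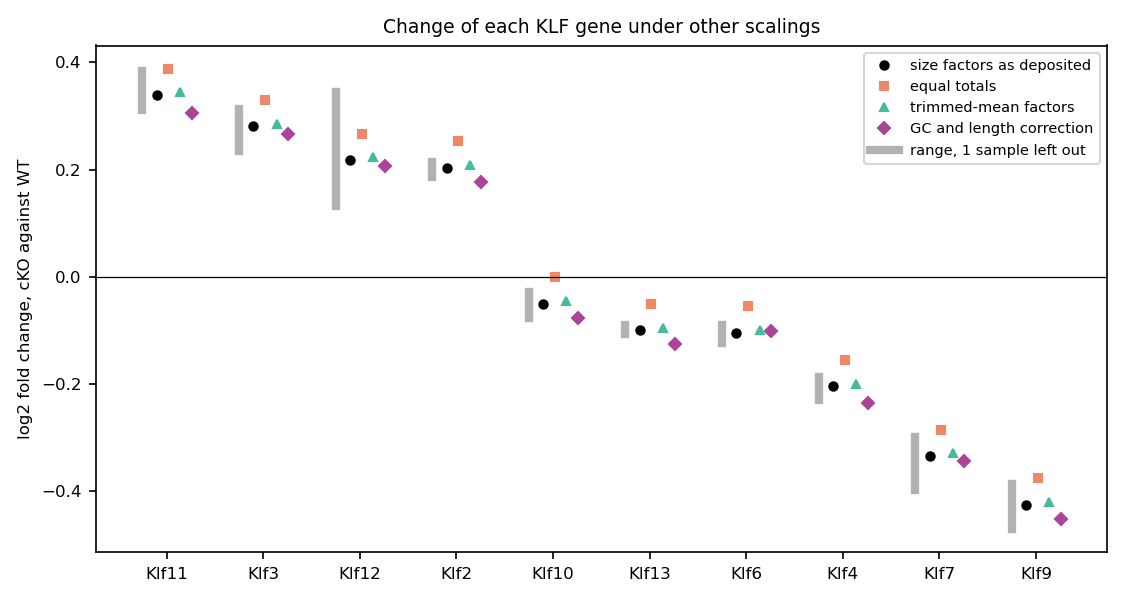
Log2 fold change of cKO against WT (vertical axis) of each KLF gene under the deposited size factors, equal totals, trimmed-mean factors and a GC and length correction (points), with grey bars for the range over the fits that leave out 1 sample. No gene crosses 0 in any of these settings, and Klf10 comes closest to it with equal totals.

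Outside the 10 genes, 7 of 16 other KLF and SP genes were listed, and 2 of them were higher and 1 lower in cKO. The called share was 42.9%, against 36.6% of all genes. The median log2 fold change was −0.05 over the 7, against 0.0014 over all genes. Klf16 was at 3933, 4290.03 and 4007 in WT and at 4878, 4882 and 4897 in cKO, a log2 fold change of 0.26 (SE 0.0405, limma adjusted p = 1.01e-05). Sp4 rose by 0.26 and Sp3 fell by 0.14 on the log2 scale. Sp1, Sp2, Klf8 and Klf5 did not pass the test, with log2 fold changes of −0.05, −0.07, −0.11 and 0.51. Klf5 was between 39.7 and 77.2 normalized counts in all samples, which leaves its change poorly determined (SE 0.280).

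Of 12 genes for cofactors that KLFs recruit, 3 were higher and 2 lower in cKO, and their median log2 fold change was 0.06. This is 41.7% called, near the 36.6% of all genes and below the 52.6% of genes averaging 1000 normalized counts or more. Kdm1a, a histone demethylase of corepressor complexes, rose by 0.32, and the acetyltransferase genes Kat2b and Crebbp rose by 0.15 and 0.12 on the log2 scale. Sin3b, a Sin3 scaffold, fell by 0.18 and the deacetylase gene Hdac1 by 0.09. Ctbp1, the corepressor of KLF3 and KLF12, had a log2 fold change of −0.07 (SE 0.0321, limma adjusted p = 0.0704), and Ctbp2 of 0.12 (limma adjusted p = 0.378). With equal totals the split was 5 higher and 1 lower, and with the GC and length correction 2 higher and 4 lower. The count of 5 rested on single samples and was 3 without cKO replicate 1 or cKO replicate 3 and 8 without cKO replicate 2. Kat2b lost its call without cKO replicate 1 (limma adjusted p = 0.0595), Crebbp without WT replicate 2 (0.140) or cKO replicate 3 (0.165) or with the GC and length correction (0.0785), and Hdac1 without any one sample other than cKO replicate 2 (0.0575 to 0.197) or with equal totals (0.312).

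Of 12 genes known to act upstream of KLF2 and its relatives, 4 were higher and 2 lower in cKO, with a median of 0.02 on the log2 scale. Thus 50% were called, against 36.6% of all genes and 52.6% of those averaging 1000 normalized counts or more. Mapk7 encodes ERK5, the kinase that drives Klf2 transcription through MEF2 factors. It was at 1562, 1616 and 1498 in WT and at 2268, 2301 and 2321 in cKO, a log2 fold change of 0.56 (SE 0.0509, limma adjusted p = 1.75e-09). The MEF2 genes went the other way, with Mef2c falling by 0.22 and Mef2d by 0.15 on the log2 scale and Mef2a at −0.07 (limma adjusted p = 0.129). Foxo1, an activator of Klf2 in lymphocytes, rose by 0.24 and Foxo3 by 0.17. Fbxw7, a ubiquitin ligase subunit that marks KLF2 protein for degradation, rose by 0.16. The kinase genes Map3k2, Map3k3 and Map2k5, which lie above ERK5, did not pass the test, with log2 fold changes of 0.01, 0.05 and 0.04.

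Of 14 homing and quiescence genes linked to KLF2, 7 were higher and 3 lower in cKO, and the median log2 fold change was 0.12. The called share was 71.4%, against 36.6% of all genes and 52.6% of those averaging 1000 normalized counts or more. S1pr1, the sphingosine-1-phosphate receptor for exit from tissue, was at 2437, 2362 and 2228 in WT and at 5736, 6020.3 and 5792 in cKO. Every cKO sample was far above every WT sample, with a log2 fold change of 1.32 (SE 0.0431, limma adjusted p = 3.24e-18). Cxcr3 rose by 0.81 and S1pr4 by 0.72 on the log2 scale. S1pr5, the receptor by which NK cells leave bone marrow and lymph nodes, rose by 0.49, Il7r by 0.52 and Cxcr4 by 0.20. Ccr7 fell by 0.18 and Cd69, which antagonises S1PR1 at the cell surface, by 0.12. The cell cycle inhibitor genes Cdkn1a and Cdkn1b and Myc did not pass the test, with log2 fold changes of 0.03, 0.05 and −0.08. Ccr7 lost its call without WT replicate 1 (limma adjusted p = 0.195) or cKO replicate 3 (0.152) and Cd69 without cKO replicate 3 (0.0597), and both lost it with equal totals (0.104 and 0.0690), under which 9 of the 14 genes were called higher and 0 lower.

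Of 12 TGF-beta pathway genes, the pathway by which Klf10 and Klf11 were first found, 4 were higher and 3 lower in cKO, with a median log2 fold change of −0.02. Called genes made up 58.3%, against 36.6% of all genes and 52.6% of those averaging 1000 normalized counts or more. Ski rose by 0.22, Smad3 by 0.20, Smad7, an inhibitory SMAD that feeds back on the receptor, by 0.14 and Smad4 by 0.14 on the log2 scale. Skil, a SMAD corepressor gene, was at 42951, 42838 and 41942 in WT and at 35640.5, 36178 and 36887 in cKO, a log2 fold change of −0.23 (SE 0.0290, limma adjusted p = 4.02e-07). Tgif1 fell by 0.11 and Tgfbr3, a coreceptor gene, by 0.58. Tgfbr3 was between 127 and 257 normalized counts in all samples, and without WT replicate 1 lost its call (log2 fold change −0.44, limma adjusted p = 0.0668), and Tgif1 lost its call with equal totals (limma adjusted p = 0.135). The receptor genes Tgfbr1 and Tgfbr2 did not pass the test, with log2 fold changes of −0.12 and 0.01.

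Several KLF genes, among them Klf2, Klf4, Klf6 and Klf10, are also immediate-early genes, which handling and sorting of cells can induce. Of 18 other immediate-early and dissociation genes, 7 were higher and 5 lower in cKO, with a median log2 fold change of 0.05. This is 66.7% called, against 36.6% of all genes and 52.6% of those averaging 1000 normalized counts or more. With equal totals 9 were higher and 2 lower, and without cKO replicate 1, 7 were higher and 2 lower. Their summed level was 3133480 to 3210840 in WT and 3268000 to 3371610 in cKO, without overlap, and 4.97% of all counts. Hspa1a rose by 0.87, Fos by 0.82 and Hspa1b by 0.80, while Btg2 fell by 0.28, Fosb by 0.23 and Egr2 by 0.11 on the log2 scale. Egr1 had a log2 fold change of 0.01 (SE 0.0296). Egr2 was not called without any one sample other than WT replicate 3 or cKO replicate 2 (limma adjusted p = 0.136 to 0.167), nor with equal totals (0.237). The part of these genes in the KLF results was not tested.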

How the data were processed

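Splenic NK cells were profiled by paired-end mRNA-seq in 3 WT and 3 cKO samples, grouped by their labels. The authors aligned reads to GRCm38 with HISAT2 and counted them per gene with featureCounts. The authors, in the submitters' processing notes, name HISAT2 2.0.5, featureCounts 1.5.0-p3 and DESeq2 1.16.1, while their published methods name other releases of the aligner and of the last tool. The authors deposited, as the signal of each sample, gene counts over the sample's DESeq2 size factor. Columns with the authors' mean, fold change, standard error, statistic and p-values were not used. All values of a sample were whole multiples of a common step within 0.05 of it. Taking that step as 1 read, an inference from the values, gave the reads per sample.

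Values were taken as log2(value + 1), which understates changes of low genes. A minimum of 1 normalized count in 3 or more samples kept all 14490 listed genes. The genotype effect was fitted with limma 3.58.1 in R 4.3.3 using the trended variance prior, tests were two-sided, p-values were adjusted across all genes (Benjamini-Hochberg), and the script was tested on simulated data. Levels per kb used merged exons of GENCODE M21, which 97.3% of gene names matched, and promoters came from RefSeq. All 10 KLF genes were described, with all other listed KLF and SP genes and, from each further list, the 3 highest and 3 lowest called genes with a mean of at least 1 CPM. Values of some single genes in these lists are not reported here. Genes named beyond that rule were chosen after their values were seen. The KLF genes and all lists were chosen with earlier results of these data known.

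Alternatives were another pseudocount, other filters, equal totals, trimmed-mean (TMM) factors, limma-voom, a replicate block, a GC and length correction with splines of 5 degrees of freedom, and each sample left out. Count tests on recovered reads were planned and not run.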

Additional observations from a re-analysis of the deposited data

How the results depend on the processing

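Of the 10 KLF genes, 7 to 9 were called under every change of pseudocount, filter, scaling, test or correction and 8 to 9 with 1 sample left out, against 8 as reported. The study's cutoffs (unadjusted p under 0.05 and over 1 in size on the log2 scale) were used there with DESeq2. Here they were applied to the limma fit and called 0 of the KLF genes. A limma adjusted p under 0.05 with at least 1.5-fold also called 0. No called fold change that was recomputed changed sign, but the balance of higher and lower calls did turn under some other scalings or corrections. Using the longest transcript in place of merged exons moved the WT level per kb of 8 of the 10 KLF genes by more than the spread between samples. Equal totals gave 3487 genes higher and 2016 lower, in place of 2576 and 2731, and TMM factors gave 2663 and 2658. The KLF genes went from 3 higher and 5 lower to 4 and 3 with equal totals, and cofactor genes from 3 and 2 to 2 and 4 with the GC and length correction. Leaving out 1 sample gave 4417 to 4922 called genes, against 5307, and 3 to 8 called cofactor genes, against 5. The edgeR and DESeq2 fits on recovered reads were not run. Reads outside the listed genes were not analysed here, and with 3 samples per genotype the spread of single genes is poorly known.

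Replicate numbers are shared by the genotypes, but same-numbered samples did not deviate together (r = −0.040, 0.056 and 0.038), so the numbers were not taken to pair them. With the replicate block 9 KLF genes were called, Klf12 among them (adjusted p = 0.0479, limma), and 5543 genes in all. With the block and the GC and length correction the count was also 9, with Klf10 in place of Klf12 (log2 fold change −0.08, limma adjusted p = 0.0387).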
